A study of Mus musculus with 6 samples.

Results

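Group 2 innate lymphoid cells (ILC2s) of the lung listen to the epithelium through surface receptors, and 10 genes that encode the chains of these receptors were read from the transcriptomes of neonatal lung ILC2s. The 10 chains were chosen by name, as the receptor chains for IL-33, IL-25, TSLP, IL-7 and IL-2 together with the IL-4 receptor chain, out of 55394 genes listed in the files. Each symbol occurred once, under the mouse Ensembl identifier that the annotation gives to it. Each of the 6 SMART-seq libraries, a low-input type of RNA sequencing, came from 1000 sorted cells of wild type C57BL/6 mice. In the Abx group (3 libraries) the dams had drunk water with ampicillin, metronidazole, neomycin and vancomycin from day 10 until day 14 of gestation, and in the Con group (3 libraries) the dams were controls. Mice of both sexes were used in the study. The age of the pups at sorting and the sex and number of pups behind each library are not given in the sources used here, so the p-values measure the spread between these libraries, which may be technical. The sort kept lineage-negative cells stained for CD45, CD90.2 and CD25, and CD25 is the product of Il2ra. Cells of both groups were thus selected by the surface protein of that chain. What this gate did to its transcript level was not tested.

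The alarmins IL-33, IL-25 and TSLP are released by barrier epithelium and set off type 2 cytokine production in ILC2s. IL-33 binds ST2 (Il1rl1), which then recruits the accessory chain Il1rap, and this pair signals through MyD88 by means of intracellular TIR domains. IL-25 binds a pair of Il17rb and Il17ra, which carry SEFIR domains and use the adaptor Act1 (Traf3ip2). TSLP binds Crlf2 paired with the IL-7 receptor alpha chain Il7r, while IL-7 binds Il7r paired with the common gamma chain Il2rg. IL-2 uses Il2ra, Il2rb and Il2rg, and IL-4 uses Il4ra, most often with Il2rg. These class I chains have no kinase of their own and rely on Janus kinases and STAT factors.

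The chains covered almost the whole range of expression in these cells, and the sequences before the starts of 3 of them are shown because they mark its ends and the gate. Il2rg was the most abundant chain, Il1rl1 was the least abundant, and Il2ra encodes the sorting marker. The sequences are the 250 bases before a RefSeq start on GRCm38.p6, written 5′ to 3′ on the strand of the gene. Capitals mark the letters AGATAA or TGATAA, which GATA factors can bind, and CCGGAA or AGGAAG, which ETS factors can bind, on either strand.
Il2rg (chrX:101268256-101268505, minus strand): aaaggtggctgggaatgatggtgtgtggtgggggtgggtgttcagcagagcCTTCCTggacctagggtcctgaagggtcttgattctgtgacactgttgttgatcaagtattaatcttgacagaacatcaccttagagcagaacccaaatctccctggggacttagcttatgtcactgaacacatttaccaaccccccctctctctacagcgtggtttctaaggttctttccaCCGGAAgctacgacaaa
Il1rl1 (chr1:40429320-40429569, plus strand): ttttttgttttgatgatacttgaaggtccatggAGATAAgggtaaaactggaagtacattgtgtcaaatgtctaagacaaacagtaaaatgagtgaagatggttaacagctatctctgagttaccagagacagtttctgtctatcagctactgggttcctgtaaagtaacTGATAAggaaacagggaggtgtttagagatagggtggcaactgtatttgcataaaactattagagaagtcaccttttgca
Il2ra (chr2:11642542-11642791, plus strand): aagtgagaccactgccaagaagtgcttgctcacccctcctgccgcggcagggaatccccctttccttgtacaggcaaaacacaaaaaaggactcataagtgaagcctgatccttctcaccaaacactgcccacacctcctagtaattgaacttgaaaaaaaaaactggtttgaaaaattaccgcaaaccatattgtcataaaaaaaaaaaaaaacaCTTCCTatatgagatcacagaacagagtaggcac

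The Il2rg stretch held CCGGAA beginning 17 bases before the start and AGGAAG beginning 199 bases before it. The Il1rl1 stretch held AGATAA and TGATAA, beginning 217 and 80 bases before the start, and no ETS letters. Il2ra had AGGAAG 34 bases before its start. Of 32817 windows of this length in the RefSeq promoter table, 16.6% held at least 1 of the 2 GATA words and 38.2% at least 1 of the 2 ETS words. Windows were found for 8 of the 10 chains, 9 windows in all because Il1rl1 has 2 starts. GATA words stood in 2 of the 9, both of them windows of Il1rl1, and ETS words in 6. The GC box GGGCGG stood in 5 of them, against 32.7% of all windows, and 5 matches were in the window of Crlf2. These matches describe letters in a window and were not measured as sites. Il17ra and Il2rb had no window in that table.

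The libraries had transcripts that mark ILC2s. The transcription factors Gata3 (33.9 to 97.5 FPKM), Rora (35.1 to 99.9 FPKM) and Id2 (782 to 1315 FPKM) and the surface proteins Klrg1 (174 to 416 FPKM) and Thy1 (8.82 to 15.4 FPKM) were above 1 FPKM in all 6 libraries. Of the 15 ILC2 markers listed, Cd7 fell to 0.05 FPKM in Con library 2. FPKM counts fragments per kilobase of exon and per 1000000 mapped reads, so levels of different genes can be compared. Total FPKM was 420941 to 449523 in Con and 431613 to 489262 in Abx, read numbers are unknown, and 8574 to 9203 genes reached 1 FPKM in Con against 7074 to 8193 in Abx. Markers of other cells were read as sums, and none of their genes was called, where 0.0574% of all genes tested were. At an unadjusted p under 0.05 (limma) were 2 of 6 T cell, 2 of 3 thymocyte and 1 of 3 NK and ILC1 markers tested. Over all genes tested this share was 11.0%. The summed level of 11 T cell markers was 332 to 365 FPKM in Con and 476 to 595 FPKM in Abx, with Lat as the highest. That of 5 thymocyte markers was 6.51 to 37.4 FPKM in Con and 174 to 195 FPKM in Abx, with Dntt as the highest and Rag2 at 0 throughout. That of 8 NK and ILC1 markers was 8.23 to 49.3 FPKM in Con and 218.5 to 235 FPKM in Abx. Gzma alone had 215 to 224 FPKM in Abx. Of the same list, Klrb1c, Tbx21 and Prf1 were listed at 0 in every library, where a 0 may be a failed estimate. Ncr1 had 7.9 FPKM in Con library 1 and 0 in the others. Klrd1 had 5.39, 0 and 2.45 FPKM in the Con libraries, against 11.33, 0.06 and 0 FPKM in Abx. Gzmb had 22.23, 6.54 and 5.78 FPKM in the Con libraries, against 0.36, 0 and 20.03 FPKM in Abx. The summed 15 ILC2 markers were at 2858 to 3221 FPKM in the Con libraries, against 2166 to 2737 FPKM in Abx. Of the 15, 7 had positive and 8 negative fitted differences, and 3 had an unadjusted p under 0.05 (limma). These 3 were lower in Abx. Icos had 240.5 to 289 FPKM in Con and 82.4 to 120 FPKM in Abx. Areg had 657 to 783 and 197 to 393 FPKM, and Arg1 577 to 675 and 377 to 525 FPKM. Il7r, Il2rb and Il2rg are also used by T and NK cells, which the lineage gate was set to remove by CD3e, CD4, CD5, CD8a, TCR-β and NK1.1, and the part of other cells in the values below was not tested. In such bulk libraries, fewer cells of a type and less RNA per cell cannot be told apart.

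Across the 6 libraries the common gamma chain stood far above its partners. By the mean of log2(FPKM + 1), the chains ran from Il2rg through Il2rb, Il7r, Il2ra, Il17rb, Il4ra, Crlf2, Il17ra and Il1rap down to Il1rl1. Il2rg was above Il2rb in 6 of 6 libraries, with a mean difference of 4.15 ± 0.76 on the log2 scale (SD, n = 6; exact sign-flip test within libraries, two-sided p = 0.03125, the smallest that 6 libraries allow, and 0.281 after adjustment over the 9 neighbouring pairs). The other 8 neighbouring pairs did not differ beyond their spread, with exact p from 0.125 to 0.75 and the stated order in 2 to 5 of 6 libraries. Il2rb was above Il2ra and Il17rb in all 6 libraries, while Il7r was above Il2rb in 2 of them. By mean FPKM, Il2rg was above 99.4% of the 8718 genes tested, Il2rb above 89.0%, Il7r above 83.3%, Il2ra above 78.4% and Il17rb above 72.8%. Il4ra was above 64.9%, Crlf2 above 47.9% and Il17ra above 17.2% of them.

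**Figure D1:**
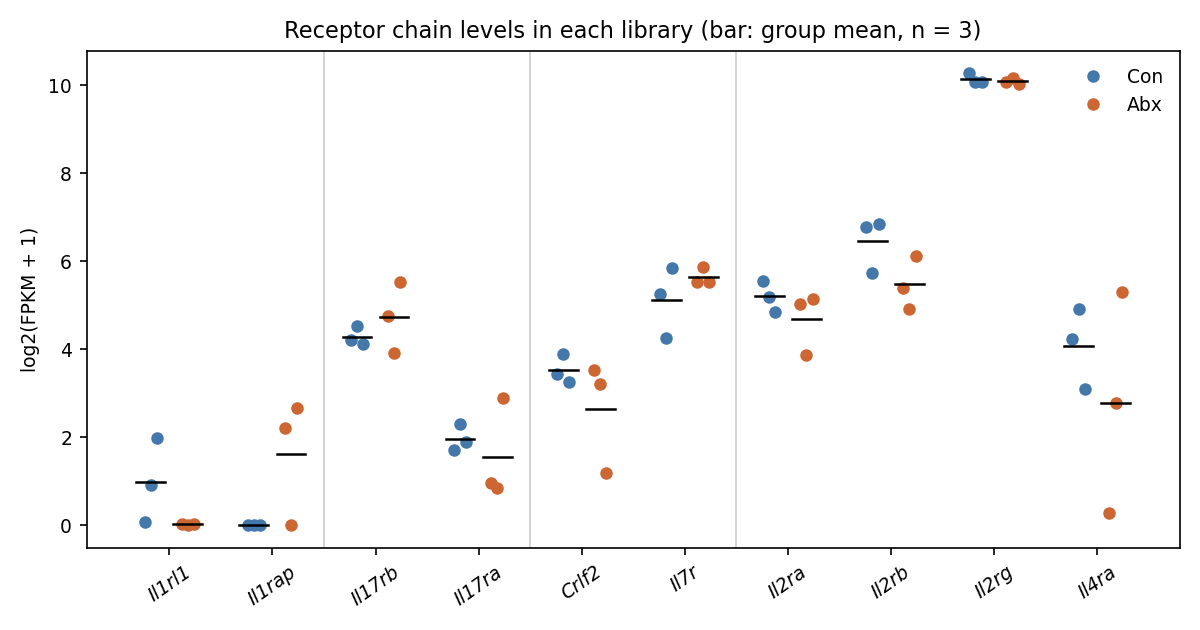
Level of each receptor chain as log2(FPKM + 1) in the 3 Con and 3 Abx libraries, with a bar at the group mean and grey lines between the receptors for IL-33, IL-25, TSLP with IL-7, and IL-2 with IL-4. Il2rg lies near 10 in all 6 libraries, Il1rl1 and Il1rap lie near 0 in most of them, and the groups overlap in every chain but Il1rl1.

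The groups were compared with limma on log2(FPKM + 1), two-sided, over the 8718 genes that reached 1 FPKM in 3 or more of the 6 libraries. Calls required a Benjamini-Hochberg adjusted p under 0.05 together with a more than 2-fold change. Of the 10 chains 8 entered this test, and Il1rl1 and Il1rap did not, since they reached 1 FPKM in 1 and 2 libraries. None of the 8 was called (0 of 8), where 0.0574% of all genes tested were. These were 4 genes higher (0.0459%) and 1 lower (0.0115%) in Abx, or 3 higher and 0 lower with every library scaled to the same total. At an unadjusted p under 0.05 the count was also 0 of 8, where 11.0% of all genes passed, and with the 2-fold limit added 9.34% of all genes (3.61% higher, 5.72% lower). Il17rb and Il7r had positive and the other 6 negative fitted differences (Il17ra positive with quantile normalization, Il2rg without Con library 1), and the median of the 8 was -0.46 against -0.06 over all genes tested. That median was -0.074 without Abx library 1 and -0.10 without Abx library 2. The lowest adjusted p among the chains was 0.472 (Il2rb) and the highest 0.934 (Il2rg).

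**Figure D2:**
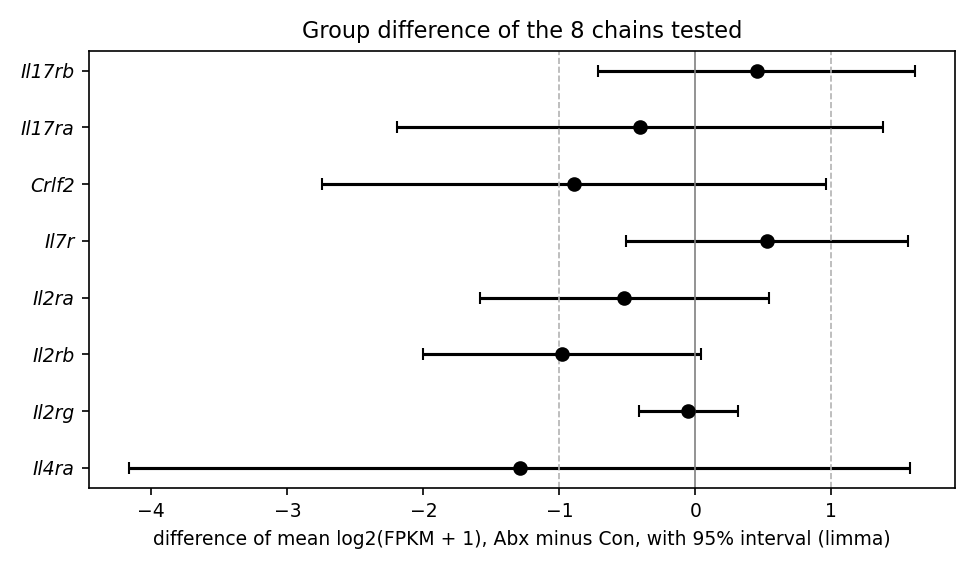
Fitted difference between Abx and Con in mean log2(FPKM + 1) for the 8 chains tested, with its 95% interval from limma and dashed lines at a fold change of 2. Every interval includes 0, that of Il2rg is the shortest (-0.42 to 0.31) and that of Il4ra the longest (-4.17 to 1.58).

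Transcripts of the ligand-binding chain of the IL-33 receptor were close to undetected in most libraries. Il1rl1 (ENSMUSG00000026069, chromosome 1 of GRCm38 from 40429570 to 40465415), whose product ST2 is known as a hallmark of lung ILC2s, had 0.06, 0.89 and 2.94 FPKM in Con libraries 1, 2 and 3. In Abx it had 0.03, 0.01 and 0.03 FPKM. All Abx values were below all Con values, and Con library 1 lay close to Abx. The difference of the mean log2(FPKM + 1) was -0.96 (exact permutation test, two-sided p = 0.1, the smallest that 3 libraries against 3 allow). It was -1.42 without Con library 1 and -0.47 without Con library 3. Il1rl1 was the only chain of the 10 whose groups did not overlap, and it was under the filter. Of the 8 chains tested 0 did not overlap, where 17.2% of all genes tested did not overlap (8.49% higher, 8.73% lower in Abx). The annotation gives Il1rl1 5 transcripts, which include membrane-bound and soluble forms of ST2, and the values per gene do not separate them.

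Il1rap (ENSMUSG00000022514, chromosome 16 from 26581704 to 26730117), the accessory chain shared by the receptors for IL-33, IL-1 and IL-36, was listed at 0 in all 3 Con libraries. In Abx it had 3.62, 0 and 5.31 FPKM. A level above 0 was therefore seen in 2 libraries only, both Abx (exact permutation test, two-sided p = 0.4). No library held both chains of the IL-33 receptor at 1 FPKM or more. Of other receptors of the IL-1 family, Il1r1 stayed at 0.12 FPKM or less in every library, and Il18r1 reached 3.59 FPKM in Con library 2 and at most 0.03 FPKM elsewhere. Il18rap, the partner of Il18r1, had 4.39, 11.4 and 8.84 FPKM in the Con libraries, against 3.37, 2.61 and 7.22 FPKM in Abx.

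For IL-25 the specific chain was present and the shared chain was scarce. Il17rb (ENSMUSG00000015966, chromosome 14 from 29996135 to 30008896) had 17.6, 22.0 and 16.5 FPKM in the Con libraries, against 26.2, 14.1 and 45.3 FPKM in Abx. Abx library 3 was the highest and Abx library 2 the lowest of all 6, so the Con values lay inside the Abx range. Its log2 fold change was 0.45 (standard error, SE, 0.50, adjusted p = 0.811 by limma), and the interval of the fold change was 0.608 to 3.07. Without Abx library 3 the difference was 0.05.

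Il17ra (ENSMUSG00000002897, chromosome 6 from 120463247 to 120487559), which also serves the IL-17A receptor, had 2.28, 3.94 and 2.70 FPKM in Con. It had 0.95, 0.79 and 6.39 FPKM in Abx, with Abx library 3 above and the other two below the Con values. In log2 units it differed by -0.41 (SE 0.77, adjusted p = 0.890 by limma). Without Abx libraries 1, 2 and 3 in turn it was -0.11, -0.044 and -1.07, and with quantile normalization its direction turned, to 0.20. Il17rb exceeded Il17ra in all 6 libraries, by 7.73, 5.58 and 6.10 times in Con and by 27.6, 17.9 and 7.09 times in Abx. The ratios of the groups overlapped (exact permutation test, two-sided p = 0.2, adjusted p = 0.40 over 6 ratios of chains).

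The TSLP chain Crlf2 (ENSMUSG00000033467, chromosome 5 from 109554709 to 109558993) had 9.93, 13.9 and 8.64 FPKM in the Con libraries, against 10.6, 8.27 and 1.3 FPKM in Abx. Abx library 3 stood apart below the rest, and the other 5 libraries lay within a narrow range. On the log2 scale the fold change was -0.89 (SE 0.80, adjusted p = 0.751 by limma), and it was -0.17 without that library.

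Il7r (ENSMUSG00000003882, chromosome 15 from 9505788 to 9530176), which pairs with Crlf2 for TSLP and with Il2rg for IL-7, had 45.2, 57.3 and 45.4 FPKM in Abx. In Con it had 37.1, 18.1 and 56.4 FPKM. The Abx values were close together while the Con values spread widely around them. Its fitted log2 fold change was 0.53 (SE 0.45, adjusted p = 0.735 by limma, interval of the fold change 0.701 to 2.96), and it was 0.10 without Con library 2. The summed T cell and thymocyte markers above, whose cells also carry Il7r, were higher in the same Abx libraries. Il7r itself overlapped between the groups, and the part of such cells in its level was not tested. Il7r exceeded Crlf2 by 3.74, 1.3 and 6.53 times in Con and by 4.27, 6.93 and 34.9 times in Abx, where the largest value came from the low Crlf2 of Abx library 3 (exact permutation test, two-sided p = 0.2, adjusted p = 0.40).

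Transcripts of every chain of the IL-2 receptor were seen in all libraries. Il2ra (ENSMUSG00000026770, chromosome 2 from 11642807 to 11693193), the alpha chain that raises the affinity for IL-2 and the marker used in the sort, had 46.0, 35.7 and 27.9 FPKM in Con. It had 31.8, 13.7 and 34.1 FPKM in Abx, where library 2 lay below the other 5. The fitted change was -0.52 in log2 units (SE 0.46, adjusted p = 0.743 by limma), and without Abx library 2 it was -0.12.

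Il2rb (ENSMUSG00000068227, chromosome 15 from 78479256 to 78495271), the signaling chain shared by IL-2 and IL-15, had the lowest p of the chains. It had 109, 52.7 and 115 FPKM in the Con libraries, against 40.9, 29.2 and 69.0 FPKM in Abx. Con libraries 1 and 3 were above all Abx libraries, while Con library 2 lay below Abx library 3, so the groups overlapped. Mean levels were 92.0 ± 34.2 FPKM for Con and 46.4 ± 20.5 FPKM for Abx (SD, n = 3 each). The log2 fold change was -0.98 (SE 0.44, by limma unadjusted p = 0.0577 and adjusted p = 0.472), and the interval of the fold change was 0.249 to 1.03. By its p it ranked 1065 among the 8718 genes tested. The difference was -1.34 without Con library 2 and -0.70 without Abx library 2. Il2rb exceeded Il2ra in every library, by 2.36, 1.47 and 4.10 times in Con and by 1.28, 2.14 and 2.02 times in Abx (exact permutation test, two-sided p = 0.4, adjusted p = 0.48).

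Il2rg (ENSMUSG00000031304, chromosome X from 101264378 to 101268255) encodes the common gamma chain, which the receptors for IL-2, IL-4, IL-7, IL-9, IL-15 and IL-21 share. It had 1237, 1085 and 1074 FPKM in the Con libraries, against 1077, 1150.3 and 1047 FPKM in Abx. All 6 libraries lay close together, and both groups covered nearly the same values. The means were 1132 ± 91.3 FPKM for Con and 1091 ± 53.3 FPKM for Abx (SD, n = 3 each). The log2 fold change was -0.05 (SE 0.16, adjusted p = 0.934 by limma), with an interval of the fold change from 0.749 to 1.24. Of the 8 chains tested it was the one for which a fold change of 2 in either direction lay outside the interval.

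Il2rg was also among the steadiest transcripts. Its coefficient of variation over the 6 libraries was 6.34%, against 33.5% to 90.1% for the other 7 chains tested and a median of 66.8% over all genes tested. Of 116 genes with a mean of at least 500 FPKM, 2 had a lower coefficient, and the median of these genes was 22.6%. Il2rg made up 81.0% to 89.9% of the summed FPKM of the 10 chains and exceeded the next chain by 9.38 to 23.8 times within a library. The sum of the 10 chains was 1350 ± 113 FPKM in Con and 1269 ± 29.5 FPKM in Abx, and without Il2rg it was 218 ± 35.9 and 178 ± 60.4 FPKM (SD, n = 3 each). When each library was scaled to a total of 1000000, Il2rg had 2752, 2563 and 2552 units in Con and at 2403, 2351 and 2425 units in Abx, so the groups no longer overlapped. The difference was then -0.13 on the log2 scale (limma adjusted p = 0.781), while the same scaling moved the median of all genes tested from -0.06 to -0.18. Il2rg lies on the X chromosome. Xist, the RNA that coats the inactive X chromosome, had 3.78 to 5.09 FPKM in the Con libraries, against 0 in the Abx libraries, so exposure and the sex of the pups cannot be told apart for any value here.

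**Figure D3:**
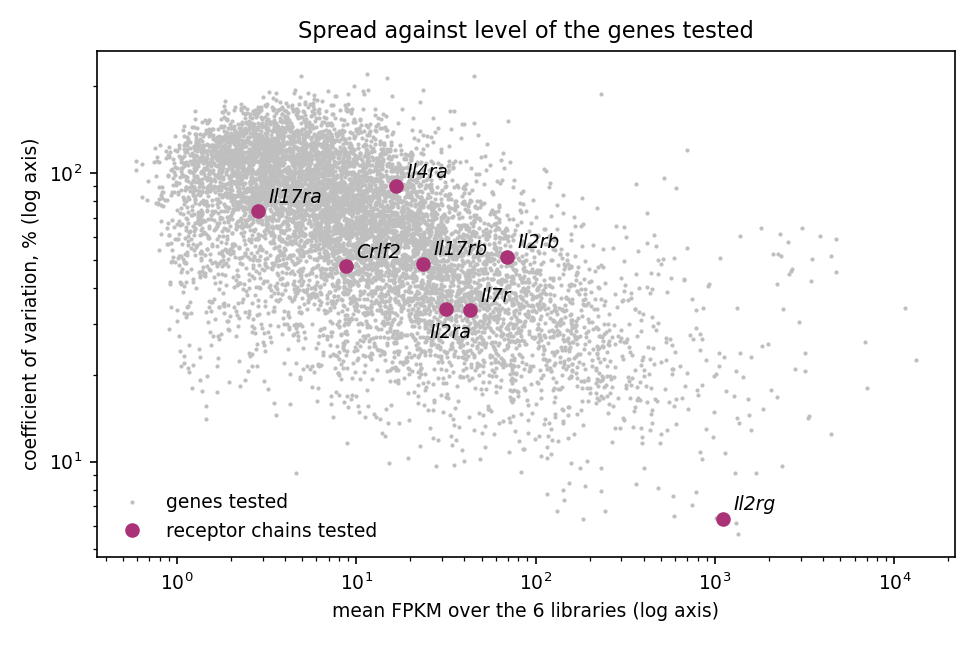
Coefficient of variation over the 6 libraries in percent against mean FPKM, both on log axes, for the 8718 genes tested (grey) and the 8 receptor chains among them (purple). Il2rg lies at the lower right, at 6.34% and a mean of 1112 FPKM, and the other 7 chains lie within the cloud at 33.5% or more.

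Il4ra (ENSMUSG00000030748, chromosome 7 from 125552120 to 125579474), the chain for IL-4 and IL-13, was the most variable of the chains tested. It had 17.8, 29.1 and 7.62 FPKM in the Con libraries, against 0.21, 5.89 and 38.8 FPKM in Abx. The lowest and the highest of the 6 values were both in Abx, in libraries 1 and 3. In log2 units the change was -1.29 (SE 1.24, adjusted p = 0.766 by limma), with an interval of the fold change from 0.0557 to 2.99. It was -0.03 without Abx library 1 and -2.55 without Abx library 3.

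**Figure D4:**
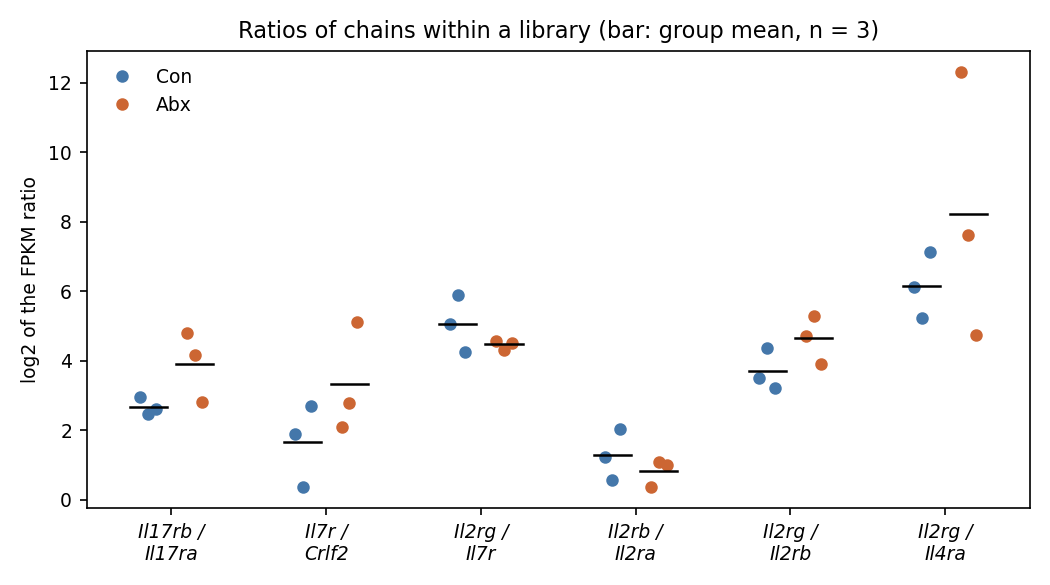
Ratio of the FPKM of chains that share a receptor, on a log2 axis, in the 3 Con and 3 Abx libraries, with a bar at the group mean. The numerator exceeds the denominator in every library and the groups overlap in all 6 ratios, with the widest spread in Il2rg over Il4ra.

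The 3 most abundant chains were also compared with the other genes tested by the shape of their values over the 6 libraries. The measure was the root mean square difference after the log2(FPKM + 1) of each gene was centred on its own mean. Nearest to Il2rg were Cfl1 (0.031), which encodes the actin-severing protein cofilin, and Cyba (0.061), a subunit of the NADPH oxidase. Nearest to Il2rb were Tmem254c (0.129) and Tmem254b (0.190), gene copies whose reads may have been split between them. Nearest to Il7r were Ergic3 (0.126), which acts in transport between endoplasmic reticulum and Golgi, and Dpy30 (0.177), a subunit of histone methyltransferase complexes. With 8718 genes and 6 libraries, close matches of this kind carry no more than a description.

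The pathway around the chains was read from 62 further genes, listed by role, of which 42 were tested. None was called in either direction (limma, 0 of 42), where 0.0574% of all genes tested were. At an unadjusted p under 0.05, 1 was higher and 2 were lower, where 4.74% and 6.25% of all genes were. The 1 higher, Il4, and 1 of the 2 lower, Stat5a, passed the filter only through the group where they were high. The groups did not overlap for 1 of the 42 with Abx higher and for 5 with Abx lower. Of all genes tested, 8.49% and 8.73% did not overlap in these directions.

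Among the ligands, the cytokines made by epithelium and stroma were not seen in the sorted cells. Il25 and Tslp were at 0 in every library, and Il33 and Il7 stayed at 0.02 FPKM or less. Il2, the growth factor bound by the IL-2 receptor, had 62.0, 16.0 and 35 FPKM in the Con libraries, against 43.0, 71.6 and 22.5 FPKM in Abx, a log2 fold change of 0.32 (SE 0.60, adjusted p = 0.890 by limma). Transcripts of this ligand and of the 3 chains that bind it thus occurred together in all 6 libraries. Il4 had 3.16, 2.57 and 5.46 FPKM in Abx and 0 in Con (limma unadjusted p = 0.00176, adjusted p = 0.105). Because it reached 1 FPKM in Abx libraries alone, it entered the test only through the group where it was high. Its p is therefore no support for a difference. Il13 and Il9, which were under the filter, were listed at 0 in all Con libraries. In Abx libraries 1, 2 and 3 Il13 had 0, 10.8 and 10.1 FPKM and Il9 had 8.98, 0 and 1.3 FPKM (exact permutation test, two-sided p = 0.4 for each). Il15, which uses Il2rb and Il2rg, had 4.78, 0 and 2.37 FPKM in the Con libraries, against 0, 7.66 and 0 FPKM in Abx. Of the 10 ligands 3 were tested, 2 with positive and 1 with negative fitted differences (1 and 2 without Abx library 2 or Con library 2, 3 and 0 without Abx library 1, Abx library 3 or Con library 1).

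Of 14 other genes listed with these receptor families, 4 were tested, 2 in each direction (1 positive and 3 negative without Abx library 3 or Con library 1). The 14 are receptor chains except Il1rn, which encodes a secreted receptor antagonist and was not tested. Sigirr, an inhibitory member of the IL-1 receptor family, was the most abundant, at 24.2, 23.4 and 25.8 FPKM in the Con libraries, against 49.5, 36.0 and 20.9 FPKM in Abx (log2 fold change 0.44, standard error 0.41, limma adjusted p = 0.761). Il9r, a further partner of Il2rg, had 6.93, 15.1 and 12.2 FPKM in the Con libraries, against 11.0, 0.51 and 7.86 FPKM in Abx (log2 fold change -1.13, standard error 0.93, limma adjusted p = 0.724). Il21r was seen in Abx library 2 alone, at 3.91 FPKM, and Il13ra1 and Il13ra2 stayed at 0.07 FPKM or less.

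Of 15 adaptors and kinases below the TIR and SEFIR domains 14 were tested, and all 14 (13 with quantile normalization) had lower fitted means in Abx, with a median of -1.46 on the log2 scale, where 53.0% of all genes tested had lower fitted means. None of the 14 was called and none had an unadjusted p under 0.05 (limma, lowest adjusted p = 0.545). Low values in Abx were frequent. Under 1 FPKM lay 10, 4 and 7 of the 14 genes in Abx libraries 1, 2 and 3, and 2, 1 and 2 in the Con libraries. Over all genes tested these shares were 26.9%, 16.9% and 21.7% in Abx and 11.1%, 13.0% and 9.18% in Con. With each library left out the median ran from -1.71 to -0.99 and 12 to 14 of the 14 were lower, and with pseudocounts of 0.1 and 0.01 it was -2.19 and -2.49. Ikbkg, the regulatory subunit of the IKK complex and the gene not tested, had 0, 0.01 and 0.03 FPKM in the Con libraries, against 0.68, 5.07 and 0.05 FPKM in Abx, so that its groups did not overlap and Abx was higher. Myd88, which couples the IL-33 receptor to its kinases, was the most abundant, at 60.6, 52.1 and 26.8 FPKM in the Con libraries, against 40.9, 38.4 and 26.6 FPKM in Abx (log2 fold change -0.33, standard error 0.41, limma adjusted p = 0.832). Traf3ip2, the adaptor of the IL-25 receptor, had 20.04, 5.58 and 15.6 FPKM in the Con libraries, against 0.02, 15.2 and 0 FPKM in Abx (log2 fold change -2.37, standard error 1.22, limma adjusted p = 0.545).

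**Figure D5:**
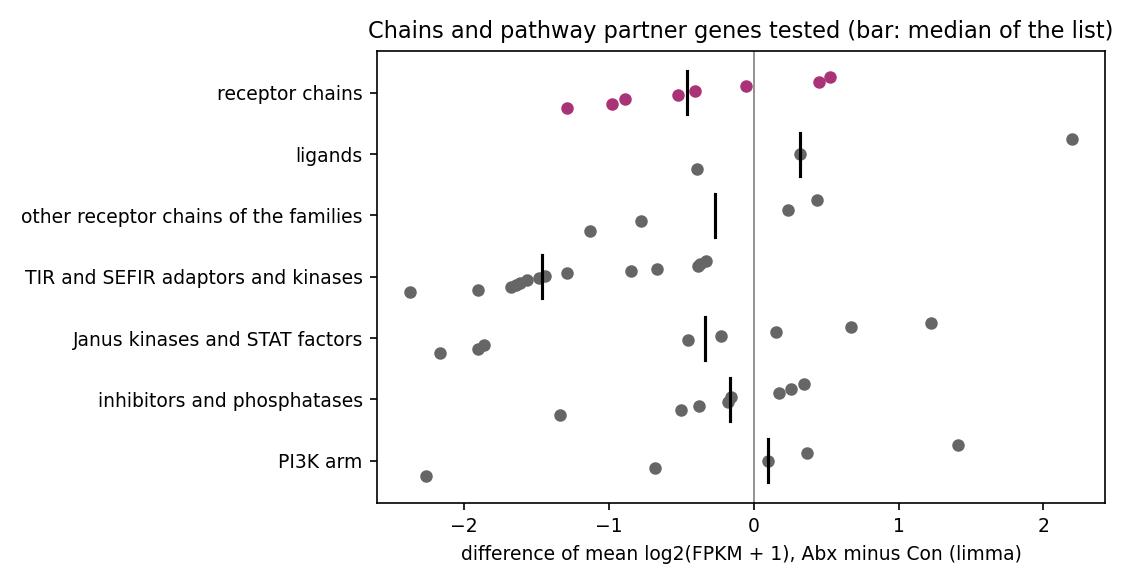
Fitted difference between Abx and Con in mean log2(FPKM + 1) for the 8 receptor chains tested (purple) and the 42 pathway partner genes tested (grey), by role, with a bar at the median of each list. All 14 adaptors and kinases lie below 0 (13 with quantile normalization), while the other lists lie on both sides of it, and no gene shown was called.

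All 8 Janus kinases and STAT factors were tested, with 3 positive and 5 negative fitted differences and a median of -0.34. Jak1, the kinase bound to Il7r, Il2rb and Il4ra, had 58.4, 37.0 and 43.6 FPKM in the Con libraries, against 20.3, 34.99 and 50.1 FPKM in Abx (log2 fold change -0.45, standard error 0.42, limma adjusted p = 0.755). Jak3, the kinase bound to Il2rg, had 23.1, 33.7 and 19.0 FPKM in the Con libraries, against 0.52, 5.18 and 18.7 FPKM in Abx. All its Abx values were below its Con values, and the log2 fold change was -2.17 (SE 0.93, adjusted p = 0.454 by limma). Stat5a, a factor activated by IL-2 and IL-7, had 5.34, 4.53 and 1.55 FPKM in the Con libraries, against 0.62, 0 and 0.06 FPKM in Abx (log2 fold change -1.90, standard error 0.57, limma unadjusted p = 0.0108, adjusted p = 0.212). Since Stat5a reached 1 FPKM in Con libraries alone, its p has the same limit as that of Il4. Jak2, which acts with the TSLP receptor, had a log2 fold change of 0.67 (SE 0.57, adjusted p = 0.738 by limma). Further entries that carry the symbols Stat5a and Stat6 have the identifiers of Ntng2 and Zfp930 and were not used.

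Of 8 inhibitors and phosphatases, 3 had positive and 5 negative fitted differences, with a median of -0.17. Without Abx library 3 there were 5 positive and 3 negative, with a median of 0.077, without Con library 2 there were 4 of each, with a median of 0.039, and without Con library 1 the median was -0.35. Cish, a feedback inhibitor induced by STAT5, was the most abundant, at 44.2, 103 and 64.8 FPKM in the Con libraries, against 86.9, 61.9 and 39.6 FPKM in Abx (log2 fold change -0.16, standard error 0.42, limma adjusted p = 0.922). Socs2, another STAT5 target, lay between 11.6 and 16.2 FPKM in 5 libraries and at 0.08 FPKM in Abx library 3. The tyrosine phosphatase Ptpn11 had a log2 fold change of 0.35 (SE 0.71, adjusted p = 0.899 by limma). Of 7 genes of the PI3K arm 5 were tested, 3 with positive and 2 with negative fitted differences (2 and 3 without Abx library 1, Abx library 2, Con library 1 or Con library 2). Grb2, an adaptor that links receptors to Ras, had 79.1, 84.6 and 77.0 FPKM in the Con libraries, against 46.6, 42.2 and 61.9 FPKM in Abx. Its groups did not overlap, and the log2 fold change was -0.68 (SE 0.27, by limma unadjusted p = 0.0383 and adjusted p = 0.40). Pik3cd, the lymphocyte catalytic subunit of PI3K, ranged from 0.14 to 10.7 FPKM in Con and from 2.31 to 38.5 FPKM in Abx (log2 fold change 1.41, standard error 1.24, limma adjusted p = 0.743).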

How the data were processed

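The deposited values are FPKM per gene, which the authors made with Cutadapt, HISAT2 and StringTie according to their methods. The methods name a human Ensembl annotation, the submitters' processing notes name Bowtie 0.12.2 with mm8 and mm9, and the genes carry mouse identifiers. Of 55394 entries, 55134 are in GENCODE M21 (GRCm38), whose coordinates were used, and an entry was taken for a symbol only where its identifier belongs to it. FPKM were compared with limma 3.58.1 (R 4.3.3) on log2(FPKM + 1), with lmFit and eBayes(trend = TRUE). Genes that reached 1 FPKM in 3 or more of 6 libraries were tested. A fold change is 2 to the power of a difference on this scale, which understates changes of low genes. Chains under the filter and ratios of chains had exact permutation tests. The read depth is unknown and counting error cannot be stated. A listed 0 may be a failed estimate.

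The chains, lists and tests were chosen with earlier results of these data known, and the ratios, the comparison of spread and the promoter words after the values had been seen. Named genes were the chains and, in each role list, the most abundant gene and that with the lowest p in each direction. For the 3 most abundant chains the 2 genes nearest in shape were added. Jak3, Il1r1, Il18r1, Il18rap, Il21r, Il13ra1, Il13ra2, Il25, Tslp, Il33, Il7, Il9, Il13, Ikbkg and Gata2 were named after their values were seen. So were the markers Cd7, Ncr1, Klrd1, Gzmb, Icos, Areg and Arg1. Markers are given as sums of lists for ILC2s, T cells, Tregs, thymocytes, B cells, NK cells with ILC1s, ILC3s, mast cells with basophils, myeloid cells, epithelium, endothelium, fibroblasts and erythroid cells. Alternatives were pseudocounts of 0.1 and 0.01, quantile normalization, median centring, scaling to a total of 1000000 (TPM), no filter, a mean of at least 5 FPKM, robust variance, the replicate number as a block and each library left out. The fit was tested on simulated data. Python 3.11.15, pandas 2.3.3 and numpy 2.4.6 were used. Promoter sequences are RefSeq's (GRCm38.p6).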

Additional observations from a re-analysis of the deposited data

How the results depend on the processing

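No receptor chain was called under any of the 17 alternatives, and the 8 chains tested had 0 at an unadjusted p under 0.05 with the fold limit. Of 141 fitted or computed differences of single chains under other settings, 139 kept their direction. That of Il17ra turned to 0.20 with quantile normalization, and that of Il2rg ranged from -0.090 to 0.015 with each library left out and turned only without Con library 1. Of the partner genes 2, Il4 and Stat5a, passed at the unadjusted p with the fold limit. Both entered the test only through the group where they were high. The count over all genes, 5, was 3 with TPM scaling, 814 at the unadjusted p with the fold limit, and 0 with median centring, without a filter and with pseudocounts of 0.1 and 0.01 (limma, 866 to 1191 genes at an unadjusted p under 0.05). With each library left out it was 0 to 2, the 2 being without Abx library 2. The number of chains whose groups do not overlap, 1, was 2 with TPM scaling and 1 to 4 with each library left out, where fewer values per group make it easier to pass. The share over all genes tested, 17.2%, is known for the main setting only. Without such a share the counts under other settings cannot be read as a result about the chains. With median centring it was Il1rap in place of Il1rl1. Il1rap is listed at 0 in all Con libraries and in Abx library 2, and centring moves the 0 of each library by its own amount. This non-overlap is thus one among shifted zeros and not a difference in the listed values. The cause of the other changes was not tested. The summed chains in Abx were 94.0% of Con. Non-overlap was not computed with quantile normalization, the block or robust variance.

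The labels number both groups 1 to 3, but same-numbered libraries did not deviate together over the genes tested (Pearson's r across genes -0.020, -0.029 and 0.0097), and not every library was closest to its own number. With the replicate block 0 genes were called (858 at an unadjusted p under 0.05), and 0 chains. The number of reads is unknown, so the limit that depth sets on the low chains cannot be given.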

Other observations

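The lists of other cell types were read as summed FPKM over their markers. Erythroid transcripts were the largest, at 6418 to 14823 FPKM in Con and 3166 to 8659 FPKM in Abx, led by the globin Hba-a2. The 9 markers of mast cells and basophils, which also carry ST2, summed to 343 to 455 FPKM in Con and to 185 to 540 FPKM in Abx, with Cpa3 as the highest gene by its mean and Gata2 at 245 FPKM in Abx library 3. Myeloid markers summed to 163 to 406 and 176 to 396 FPKM in Con and Abx, led by Lyz2. B cell markers summed to 118 to 195 and 143 to 181 FPKM, led by Cd79a. Treg markers, whose cells carry Il2ra at a high level, summed to 50.1 to 97.0 and 39.5 to 69.6 FPKM, with Foxp3 at 0.67 FPKM or less in every library. ILC3 markers summed to 24.4 to 128 and 26.3 to 95.4 FPKM, with Il17a as the highest and Il23r and Il22 at 0 throughout. Epithelial markers summed to 42.7 to 1166 and 55.8 to 142 FPKM, and Scgb1a1 of club cells reached 1109 FPKM in Con library 1. Endothelial markers summed to 5.02 to 10.7 and 6.14 to 20.96 FPKM, and fibroblast markers to 0.53 to 0.86 and 0.58 to 2.81 FPKM. None of the genes of these lists was called between the groups, where 0.0574% of all genes tested were. At an unadjusted p under 0.05 (limma) were 2 of 4 mast cell and basophil, 2 of 4 epithelial, 1 of 5 B cell and 1 of 4 erythroid markers tested. Of the Treg, ILC3, myeloid and endothelial markers tested there were 0, and no fibroblast marker was tested. Over all genes tested the share was 11.0%.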
